A study of Homo sapiens with 12 samples.

Results

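APOB, the gene of apolipoprotein B, was examined for where 5 RNA-binding proteins contacted its transcript in HepG2 cells, an established line from a human hepatic tumour. The gene was selected on its measured number of clusters, so counts of clusters are given below as a description and without a test. Its members were the clusters, the crosslinked intervals called in each library, of all 12 deposited libraries that lay on the strand of APOB (ENSG00000084674) and inside the gene in GENCODE release 44. There were 350 such clusters among 102250 in all, and clusters that overlapped by at least 1 nt merged into 90 sites, numbered here from the 5′ end of the gene. No cluster lay on the other strand of the gene or ran past its ends.

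PAR-CLIP, the assay used, feeds cells 4-thiouridine, crosslinks it to bound protein with ultraviolet light, trims the RNA with RNase T1, which cuts after G, and sequences the fragments that come down with an antibody. The study asked whether the IGF2BP proteins read internal m7G, a methylated guanosine within mRNA. All groups were unmodified HepG2 cells that received the same labelling and crosslinking. They differed in the precipitated protein and, for IGF2BP3, in a label whose meaning is not stated. IGF2BP1, IGF2BP2, METTL1 and WDR4 had 2 libraries each, and IGF2BP3 had 4, of which 2 carry the label bio2 and the other 2 are called the first IGF2BP3 libraries here. The labels do not say which replicates came from separate cultures, so p-values may measure technical spread alone. No input or mock library and no RNA level was used here, the files hold no score or read count, and a longer or more abundant RNA offers more crosslinks, so numbers of sites are not binding strengths. Libraries held 4581 to 15701 clusters.

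Apolipoprotein B is the large structural protein of very low density and low density lipoproteins, and hepatocytes secrete it as a single copy per particle. Its mRNA is among the longest that liver makes, and most of its coding sequence sits in exon 26. In intestine the enzyme APOBEC1 deaminates a C in a CAA codon of that exon to U, which makes a stop codon and the short form apoB-48, whereas liver makes the full form apoB-100. IGF2BP1, IGF2BP2 and IGF2BP3 are cytoplasmic proteins with KH domains that favour CA-rich elements such as CAUH (CAU followed by A, C or U). METTL1 is a methyltransferase that makes internal m7G in tRNA and in part of mRNA, and WDR4 is its partner subunit.

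The sites found in at least 8 of the 12 libraries are shown first because they are the places on the APOB transcript on which most libraries met. Sequences are those of the hg38 genome read 5′ to 3′ on the minus strand, with T for U, and CAUH is in capitals. For the site at the stop codon, the part up to and including the stop codon is printed.
Site 13, intron 12, chr2:21028840-21028894: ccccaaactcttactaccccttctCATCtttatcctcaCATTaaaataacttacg
Site 14, exon 14, chr2:21027938-21028015: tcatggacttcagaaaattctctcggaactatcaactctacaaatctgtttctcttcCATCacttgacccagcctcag
Site 28, exon 26, chr2:21012213-21012255: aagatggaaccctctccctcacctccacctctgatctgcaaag
Site 43, exon 26, chr2:21008872-21008935: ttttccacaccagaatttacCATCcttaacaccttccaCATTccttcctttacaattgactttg
Site 45, exon 26, chr2:21008665-21008724: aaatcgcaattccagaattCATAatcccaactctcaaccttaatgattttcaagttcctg
Site 46, exon 26, chr2:21008614-21008664: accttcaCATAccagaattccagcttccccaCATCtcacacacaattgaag
Site 53, exon 26, chr2:21007894-21007944: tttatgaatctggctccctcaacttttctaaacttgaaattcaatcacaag
Site 56, exon 26, chr2:21007411-21007497: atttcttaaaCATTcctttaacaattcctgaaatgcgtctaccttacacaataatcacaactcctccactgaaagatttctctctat
Site 62, exon 26, chr2:21006745-21006786: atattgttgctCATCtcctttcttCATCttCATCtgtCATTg
Site 84, exon 29, chr2:21003278-21003339: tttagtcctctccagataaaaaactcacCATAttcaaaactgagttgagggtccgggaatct
Site 87, exon 29, chr2:21002104-21002151: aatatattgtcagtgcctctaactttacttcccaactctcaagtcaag
Site 88, exon 29, chr2:21001814-21001875: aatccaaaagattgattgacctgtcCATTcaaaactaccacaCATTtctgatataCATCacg
Site 89, exon 29, coding part, chr2:21001730-21001762: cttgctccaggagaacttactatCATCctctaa

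APOB lies at chr2:21001429-21044073 on the minus strand of hg38 and has 29 exons in its canonical transcript, ENST00000233242. Of the 90 sites, 74 lay in the coding sequence, 2 in the 3′ UTR, 14 in introns and 0 in the 5′ UTR, with each site placed by its midpoint. The corresponding clusters numbered 293, 9, 48 and 0. Sites covered 20.9% of the 13692 coding nucleotides.

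Exon 26, at chr2:21005080-21012651, held 54 of the 76 exonic sites and makes up 53.6% of the transcript's length. The density was 7.13 sites per kb in exon 26, 2.99 in exons 1 to 25 and 4.08 in exons 27 to 29, against 0.491 per kb of intron. Exon 26 is 7572 nt long, and exons 2 to 25 have a median length of 172 nt. The part of exon length, and of reads that span exon joins, was not tested. This holds for the densities and for the counts along the coding sequence. Exons with any site numbered 13 of 29. In exons 1 to 25, 13 sites lay in exons 3, 4, 6, 9, 14, 17, 19, 22, 23 and 25, and in the last exons 2 lay in exon 28 and 7 in exon 29. With the coding sequence cut into 4 parts of equal length, from the start codon on, there were 10, 16, 24 and 24 sites. Those in at least 8 libraries numbered 1, 1, 6 and 3 in the same parts, so more of both lay in the later parts of the coding sequence.

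**Figure D1:**
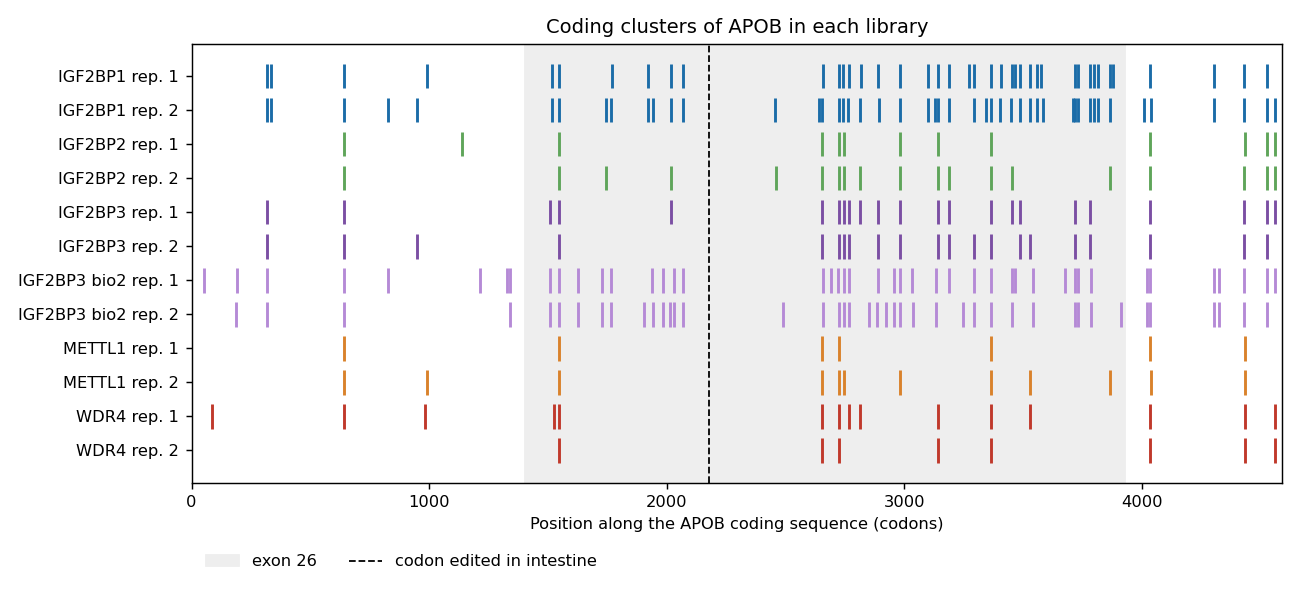
Each mark is the midpoint of 1 coding cluster of APOB, placed by codon (x axis) in the library of its row; the grey band is exon 26 and the dashed line is codon 2180, which is edited in intestine. The marks line up in columns across libraries at the sites of at least 8 libraries, and no library has a mark between codons 2075 and 2453.

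Most sites were found in few libraries. There were 22 sites in 1 library and 29 in 2 libraries, 26 in 3 to 7 libraries and 13 in at least 8. The sites in at least 8 libraries made up 14.4% of the APOB sites, where 4.14% of all 45174 merged sites of the series had as many libraries. Among coding sites alone the shares were 14.9% in APOB and 5.14% in all genes. All 12 libraries held 6 of the APOB sites, or 6.67%, against 0.591% over the series. Since the gene was chosen for how many clusters it has, these shares are a description. All 5 proteins met at 9 sites, for which no share over the series was computed, so nothing is read from that count. One protein only was found at 45 of the 90 sites, where the share over the series was 70%.

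The 6 sites of all 12 libraries were sites 28, 43, 45, 62, 84 and 87. Sites 28, 43, 45 and 62 lie in exon 26 and cover codons 1538 to 1552, 2645 to 2666, 2715 to 2735 and 3361 to 3375. Site 62, with 4 CAUH elements in 42 nt and 21 T among its 42 letters, had clusters of 27 to 42 nt. Site 43 had clusters of 45 to 64 nt, with 45 nt common to every library. At site 45 the clusters spanned 26 to 54 nt, with 26 nt in common. Site 28 had no CAUH between its ends and shared a core of 26 nt.

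Sites 84 and 87 belong to exon 29, the last exon. Clusters of site 84 were 25 to 57 nt long and those of site 87 were 28 to 48 nt long. The genomic span of site 84 starts 5 nt inside intron 28, because the cluster of 1 library, IGF2BP2 replicate 2, runs over the exon edge. Those 5 intron letters differ at 2 places from the last 5 letters of exon 28, T1C and T3C, counted from 1 at the 5′ end with the intron letter first. Whether the reads behind it came from spliced RNA cannot be read from the files.

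Site 14 in exon 14, codons 627 to 653, was the only exonic site in at least 8 libraries before exon 26. It was absent from 1 library, WDR4 replicate 2. Site 89, chr2:21001688-21001762, spans the stop codon at chr2:21001730-21001732, and all 11 of its clusters, from 11 libraries, contain the stop codon. The library without it was METTL1 replicate 1.

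Sites 46, 53, 56 and 88 were held by all 8 IGF2BP libraries and by fewer of the METTL1 and WDR4 libraries. Sites 46 and 53 had 1 METTL1 library and no WDR4 library each, and site 56 had both WDR4 libraries and no METTL1 library. Site 88, codons 4516 to 4536 with 3 CAUH, had 8 IGF2BP libraries and 0 METTL1 or WDR4 libraries. At site 56, 1 library had 2 separate clusters, so its 11 clusters had no base common to all of them. The depth behind each cluster was unknown, and its part in which libraries lack a site was not tested.

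The intronic site 13 differed from these in its libraries and its edges. Both libraries of IGF2BP1, IGF2BP2, METTL1 and WDR4 and both first IGF2BP3 libraries held it, and neither bio2 library did. All 10 clusters had the same start and the same end, 55 nt apart. Its midpoint lay 772 nt after exon 12 and 329 nt before exon 13.

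**Figure D2:**
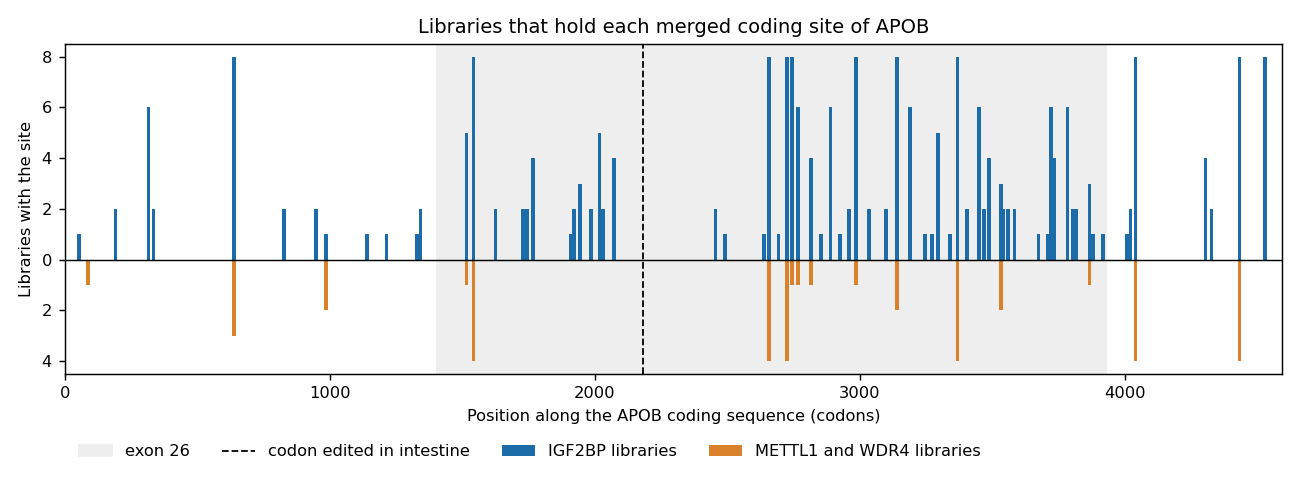
Bars show, for each of the 74 coding sites placed by codon (x axis), the number of the 8 IGF2BP libraries (upwards) and of the 4 METTL1 and WDR4 libraries (downwards) that hold it; grey is exon 26 and the dashed line codon 2180. Bars that reach 4 downwards stand under bars that reach 8 upwards at 6 sites. Site 89, whose midpoint lies past the stop codon, is not drawn.

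The codon that is edited in intestine lay in a stretch without sites. The edited C is at chr2:21010330, position 6538 of the coding sequence and the first base of codon 2180, counted from the start codon. Its surroundings are shown because the editing enzyme needs the letters after the codon, and the codon is in capitals.
Edited codon, exon 26, chr2:21010310-21010339: tatatgataCAAtttgatcagtatattaaa
No cluster of any library overlapped it. The nearest site upstream, site 39, ended 314 nt away, and the nearest downstream, site 40, began 820 nt away. The stretch between them, chr2:21009511-21010643, measured 1133 nt and was the longest in exon 26 without a site, where the next were 419 nt and 373 nt and the median gap was 60 nt. U and CAUH were about as frequent in it as in the exon. U made up 28.2% of the stretch and 26.8% of exon 26, CAUH occurred 15 times per kb in it and 16 times per kb in exon 26, and G, after which RNase T1 cuts, made up 17.9% and 18.9%. A was more frequent in the stretch than in the exon, 39% and 32.3%. Upstream of the edited codon, in 47.7% of the coding sequence, lay 26 coding sites and 82 clusters, and downstream lay 48 sites and 211 clusters. Of the coding sites in at least 8 libraries, 2 were upstream and 9 downstream.

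APOB clusters numbered 49 and 55 in the IGF2BP1 libraries, 14 and 23 in the IGF2BP2 libraries, 27 and 26 in the first IGF2BP3 libraries and 50 and 49 in the bio2 libraries. The METTL1 libraries held 10 and 17 and the WDR4 libraries 20 and 10. As a share of the library's clusters, the lowest was 0.109% in WDR4 replicate 2, with a 95% Wilson interval of 0.059% to 0.2% for counting error alone, and the highest was 0.815% in bio2 replicate 2, with an interval of 0.617% to 1.08%. Both bio2 libraries, at 0.774% and 0.815%, lay above every other library, the next being 0.418% in replicate 1 of the first IGF2BP3 libraries. Of the coding clusters of a library, APOB took 1.34% to 3.33%. On that scale the bio2 libraries, at 3.08% and 3.33%, did not stand apart, since those of IGF2BP2 were at 3.3% and 2.95%.

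IGF2BP3 had clusters at 63 of the 90 sites and IGF2BP1 at 59. IGF2BP2 had clusters at 24, WDR4 at 20 and METTL1 at 18. A site counted as reproducible for a protein when at least 2 of its libraries held it. For IGF2BP1 this was so for 44 of 59 sites, or 74.6%, against 54.7% of all its merged sites in the series. For IGF2BP2 it was 13 of 24, or 54.2%, against 35.7%. For IGF2BP3, with 4 libraries, it was 47 of 63, or 74.6%, against 58.6%. METTL1 had 9 of 18 and WDR4 10 of 20, or 50% each, where the shares over the series were 13.7% and 15.2%. Numbers of reproducible clusters entered the choice of the gene, so nothing is read from these shares.

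IGF2BP3, with 4 libraries where the others had 2, was the only protein at 26 of its 63 sites, and over the series at 32.2% of its sites. IGF2BP1 was alone at 15 of 59, against 37.1%, and IGF2BP2 at 1 of 24, against 21.8%. WDR4 was alone at 3 of 20 and METTL1 at 0 of 18, where the shares over the series were 66.5% and 61.9%. Of the 15 IGF2BP1 sites, 8 were in both of its libraries. IGF2BP2 had nearly all of its sites where another member of the family had one, 23 of 24 with IGF2BP1 and 18 of 24 with IGF2BP3, where the shares over the series were 70.6% and 46%. These counts depend on how many clusters the gene has, which chose it, and are a description.

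All 26 sites with IGF2BP3 only were sites of the bio2 libraries. The bio2 libraries held 57 sites, and the 26 that no other library had made up 45.6% of them, close to the 45.5% of all bio2 sites in the series. In the coding sequence it was 22 of 50, or 44%, against 48.7% over all genes. Both bio2 libraries held 15 of the 26, of which 7 lay in exon 26, 4 in other exons and 4 in introns. Merging the other 10 libraries alone gave 65 sites. The first IGF2BP3 libraries held 30 sites. IGF2BP1 also had all 30 of them, where the share over the series was 91%. The bio2 libraries had 24 of the 30, or 80%, where the share over the series was 36.6%. Such shares are again a description, as the gene was chosen for its number of clusters. What distinguishes the bio2 samples is not stated beyond the label.

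METTL1 or WDR4 had clusters at 25 sites of APOB, and at 21 of these, or 84%, an IGF2BP protein had a cluster too. Over the series the share was 24.9% of all METTL1 and WDR4 sites. Restricted to coding sites, it was 16 of 17 in APOB, or 94.1%, and 40.3% over all genes. IGF2BP clusters covered 20.3% of the exonic nucleotides of APOB. That is not the share of sites expected to meet by chance, since an overlap of 1 nt is enough. It also leaves out introns, where 6 of the 25 sites lay. The 2 proteins of the methyltransferase met at 13 sites. All 4 of their libraries held 7 sites, for which no share over the series was computed. These 13 were among 18 METTL1 and 20 WDR4 sites, where over the series 24% of METTL1 sites had WDR4 and 19.3% of WDR4 sites had METTL1. METTL1 without WDR4 was seen at 5 sites and WDR4 without METTL1 at 7. An IGF2BP cluster was present at 86 of the 90 sites, and the gene was chosen for its number of clusters. Shares of sites on which proteins met are therefore a description.

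Sites without any IGF2BP cluster were rare. They numbered 4, all of the methyltransferase alone, and 3 of them are shown as examples.
Site 2, exon 4, WDR4 replicate 1, chr2:21041045-21041070: ttccccagctctgcagcttCATCctg
Site 12, intron 10, WDR4 replicate 1, chr2:21031380-21031402: caCATTatttcactcccacttat
Site 83, intron 28, METTL1 and WDR4, chr2:21003621-21003669: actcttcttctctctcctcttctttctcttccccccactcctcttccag
Of the 4, 3 rested on 1 library, WDR4 replicate 1, and without that library the share of METTL1 and WDR4 sites that had IGF2BP was 94.7%. Site 83 was held by 1 METTL1 and 1 WDR4 library, with clusters of the same 49 nt, and had 1 G, its last base.

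Widths, positions and letters were not used to choose the gene, and they were compared between the 8 IGF2BP libraries and the 4 METTL1 and WDR4 libraries. Each library gave 1 value, and the two-sided exact permutation test ran over all 495 arrangements of the labels. There were 6 tests, and adjusted p-values are Benjamini-Hochberg values over the 6. The smallest p-value these tests could give was 0.00202, or 0.00404 for the share with CAUH.

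APOB exonic clusters were wider in the IGF2BP libraries. Their median width was 29 to 37.5 nt in the 8 IGF2BP libraries, with a median of 32.2 nt. It was 29 and 28 nt in the METTL1 libraries and 28 and 29 nt in the WDR4 libraries. All 4 values lay at or below the lowest IGF2BP library, IGF2BP1 replicate 1. The means were 32.6 ± 2.6 nt (SD, n = 8) and 28.5 ± 0.577 nt (SD, n = 4), a difference of 4.06 nt with an exact permutation p of 0.0202 (adjusted p = 0.0404). Without METTL1 replicate 2 or without WDR4 replicate 1 the exact p was 0.0545, and with the 5 proteins as units it was 0.2, where 0.1 is the smallest possible. Among clusters at or above the median width of their library it was 0.291. Relative to the library's own median over all coding clusters, APOB clusters were 1.44 ± 3.1 nt narrower (SD, n = 8) in the IGF2BP libraries and 4 ± 0.816 nt narrower (SD, n = 4) in those of METTL1 and WDR4, and this difference did not pass the exact permutation test (p = 0.149, adjusted p = 0.224).

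The share of exonic clusters in exon 26 was also higher for IGF2BP. It ran from 53.8% to 76.7% over the 8 IGF2BP libraries, with a median of 72%. It was 50% and 57.1% for METTL1 and 60% and 62.5% for WDR4. Of the IGF2BP libraries, 7 lay above all 4 of these, and IGF2BP2 replicate 1 lay at 53.8%, close to the 53.6% of the transcript that the exon makes up. The means were 69.8% ± 7.48 (SD, n = 8) and 57.4% ± 5.4 (SD, n = 4), with an exact permutation p of 0.0182 (adjusted p = 0.0404). The METTL1 and WDR4 values rest on 8 to 15 exonic clusters a library and the IGF2BP values on 13 to 49. Without METTL1 replicate 1 the exact p was 0.0606, and with the 5 proteins as units it was 0.2. Among clusters at or above the median width of their library the direction turned, to 55.7% for IGF2BP and 79.2% for METTL1 and WDR4 (exact p = 0.0424), with 1 to 4 such clusters in a METTL1 or WDR4 library.

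CAUH was found more often in the IGF2BP clusters when clusters were widened by 10 nt on both sides. The share of exonic clusters with it was 61.5% to 81.8% over the 8 IGF2BP libraries, with a median of 69.8%. It was 62.5% and 57.1% for METTL1 and 53.3% and 62.5% for WDR4. The highest METTL1 and WDR4 values lay above the lowest IGF2BP library, IGF2BP2 replicate 1, and below the other 7. The means were 71.1% ± 6.16 (SD, n = 8) and 58.9% ± 4.47 (SD, n = 4), with an exact permutation p of 0.00808 (adjusted p = 0.0404). With the 5 proteins as units the exact p was 0.1, the smallest possible, and among clusters at or above the median width of their library it was 0.303. In the clusters as deposited the difference was 2.82 percentage points (exact p = 0.535), and in windows of 41 nt around the midpoint, where width plays no part, it was 2.92 (exact p = 0.521). Over the coding clusters of all genes, widened in the same way, 58.9% to 79.9% held CAUH in the IGF2BP libraries and 48.4% to 54.3% in the METTL1 and WDR4 libraries. Of all windows of 55 nt of the APOB transcript 54.7% hold it, and of all windows of 41 nt 43.4%.

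Mean position along the coding sequence (0 at the start codon, 1 at the stop codon) was 0.629 ± 0.027 (SD, n = 8) for IGF2BP and 0.628 ± 0.0678 (SD, n = 4) for METTL1 and WDR4, with an exact permutation p of 0.972 (adjusted p = 0.972). The WDR4 libraries lay farthest apart of all, at 0.567 and 0.725. U content was 30.8% ± 0.637 (SD, n = 8) and 31.2% ± 1.04 (SD, n = 4), with an exact permutation p of 0.448 (adjusted p = 0.538). Neither passed, which does not show that the groups are alike.

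**Figure D3:**
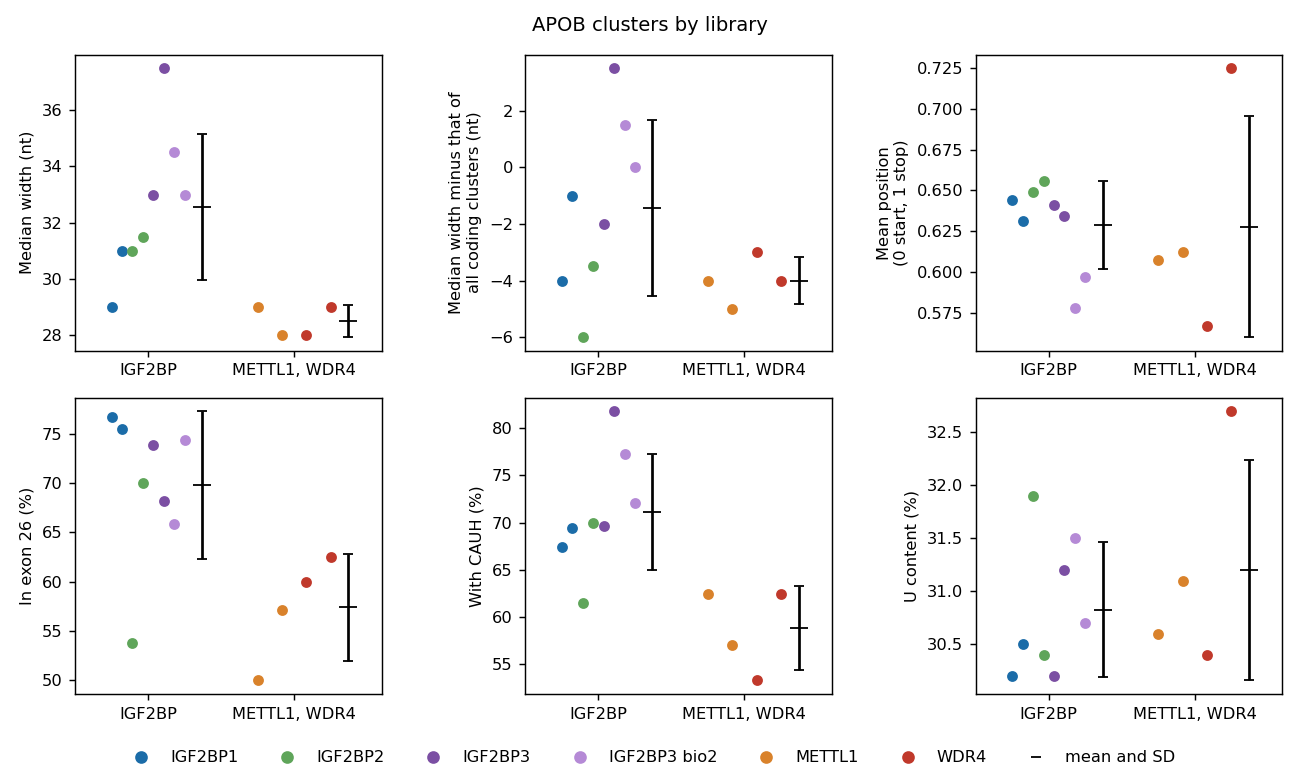
Each point is 1 library, coloured by protein, in 6 panels for the median width in nt, the median width less that of all coding clusters in nt, the mean position, the percentage in exon 26, the percentage with CAUH and the percentage of U of APOB clusters; black marks are the mean and SD of the 8 IGF2BP and of the 4 METTL1 and WDR4 libraries. Ranges of the groups overlap or touch in every panel, and the y axes do not start at 0.

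RNase T1 cuts after G, and 4-thiouridine crosslinks at U. G stood just before 96.9% of the APOB clusters and was the last base of 86%. Within exonic sites U made up 29.1% and G 13.2%, against 25.5% and 20.6% of the transcript. CAUH occurred in 43 of the 76 exonic sites, and in 9 of the 12 exonic sites of at least 8 libraries. Sites of at least 8 libraries had a median width of 60 nt, sites of 1 library 26.5 nt and all sites 34.5 nt. A merged site spans all of its clusters, and a wider cluster overlaps others more readily. More libraries therefore go with a wider site by the way sites were made. In the transcript, 35.7% of all windows of 33 nt hold CAUH, 43.4% of those of 41 nt and 54.7% of those of 55 nt. The part of width in these counts was not tested. Clusters were 13 to 78 nt wide with a median of 34 nt, and sites 18 to 87 nt with a median of 34.5 nt. Clusters in sites of at least 8 libraries had a median width of 40 nt and the others 30 nt.

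How far pairs of libraries shared APOB clusters is given without a test, since reproducible clusters entered the choice of the gene. For a pair of libraries the measure was the percentage of the clusters of both that overlapped a cluster of the other. The 10 pairs of the same protein averaged 68.3%, from 53.3% to 86.8%, and the 56 pairs of different proteins averaged 49.8%, from 23.3% to 75%. The pair of IGF2BP1 shared 84.6%, that of IGF2BP2 70.3%, the first IGF2BP3 pair 86.8% and the bio2 pair 84.8%, and the METTL1 and WDR4 pairs 66.7% each. The first IGF2BP3 libraries shared 55.9% on average with the bio2 libraries, 66.9% with IGF2BP1 and 65.4% with IGF2BP2. METTL1 libraries shared 65.1% with WDR4 libraries, near the 66.7% within either protein. They shared 65.5% with IGF2BP2, 48.4% with the first IGF2BP3 libraries, 38% with IGF2BP1 and 26.8% with bio2, and WDR4 shared 62.6%, 50.5%, 36.3% and 27.8% in the same order.

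Those averages moved with the number of APOB clusters. The IGF2BP2, METTL1 and WDR4 libraries held 10 to 23 each, and the IGF2BP1 and bio2 libraries 49 to 55. Of the IGF2BP2 clusters 70.3% lay in sites of at least 8 libraries, and of the METTL1 and WDR4 clusters 66.7%. For the first IGF2BP3, IGF2BP1 and bio2 libraries the shares were 49.1%, 26% and 24.2%. The part of cluster number in the sharing was not tested.

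**Figure D4:**
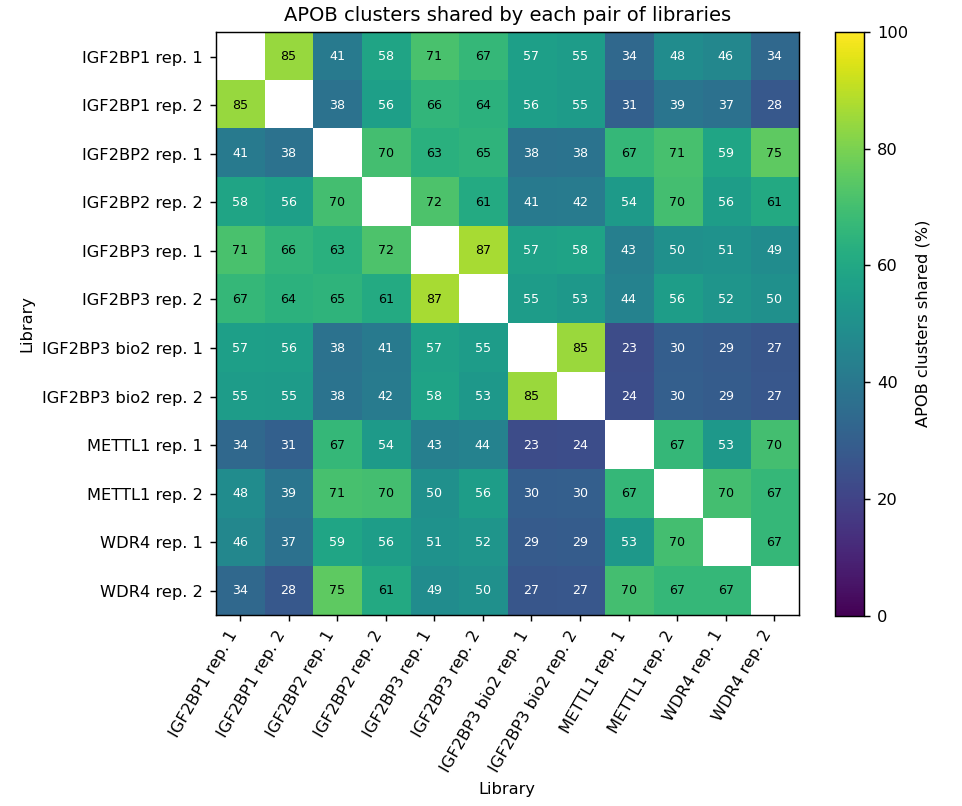
Each cell gives the percentage of the APOB clusters of 2 libraries that overlap a cluster of the other by at least 1 nt, on a colour scale from 0 to 100. Pairs of the same protein lie next to the diagonal or, for some pairs of IGF2BP3, near it, at 53.3% to 86.8%. Some pairs of different proteins lie there too. The lowest value, 23.3%, is between a bio2 and a METTL1 library.

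Introns held 14 sites. U made up 34.6% of their letters and G 5.96%, where exonic sites had 29.1% and 13.2%. Shares of letters and of CAUH over whole introns are not given here. The values for intronic sites therefore do not show what sets them apart from the introns around them. These sites lay 65 to 1367 nt from the nearest exon by their midpoints, and 4 were in intron 10. At least 2 libraries held 11 of the 14. CAUH occurred in 10 of them. At least 4 CAUH were found in 4 intronic sites, and in 2 exonic ones, sites 60 and 62. Of the intronic ones 3 are shown, as examples of repeated CAUH outside the exons.
Site 6, intron 8, IGF2BP1, IGF2BP2, METTL1 and WDR4, chr2:21033822-21033890: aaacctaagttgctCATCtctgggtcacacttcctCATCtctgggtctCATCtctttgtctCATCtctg
Site 10, intron 10, IGF2BP1 and IGF2BP3, chr2:21032002-21032045: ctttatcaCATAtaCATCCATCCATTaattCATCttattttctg
Site 21, intron 20, both bio2 libraries, chr2:21017352-21017385: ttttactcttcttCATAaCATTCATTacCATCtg
Site 10 was held by all 4 IGF2BP3 and both IGF2BP1 libraries with clusters of the same 44 nt. Site 11, also in intron 10, was held by these 6 and by 1 IGF2BP2 library. Site 6 was in 1 IGF2BP1, 1 IGF2BP2, 1 METTL1 and both WDR4 libraries. The central 20 nt of site 16 occur 34 times in the genome and those of site 12, one of the sites without IGF2BP, 4 times, so that sequence alone does not place their clusters in APOB. Of the 86 sites wide enough for this count, 80 had a single copy, 4 of the other 6 were intronic, and every site of at least 8 libraries was single-copy. One intronic site, site 16, lies in an exon of another APOB transcript.

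Among genes, APOB had the most coding sites, 74, followed by FASN and FN1 with 23 each. Per kb of coding sequence it had 5.4, which was rank 6 among the 103 genes with at least 5 coding sites, where the median was 1.44. The 5 genes above it, FTL, HOXD1, SERPINA1, CERS2 and PCBP1, have coding sequences of 528 to 1257 nt, and these and the preceding genes were named after their values were seen. Of the 123 genes with a coding sequence of at least 10 kb, 38 had a coding site at all, and APOB came first. Next were ZFHX3 with 0.99 and ALMS1 with 0.8 sites per kb. Counting sites in at least 2 libraries, APOB had 55, or 4.02 per kb, and was again first of the 123. RNA levels were not used here, so density cannot be told apart from abundance.

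**Figure D5:**
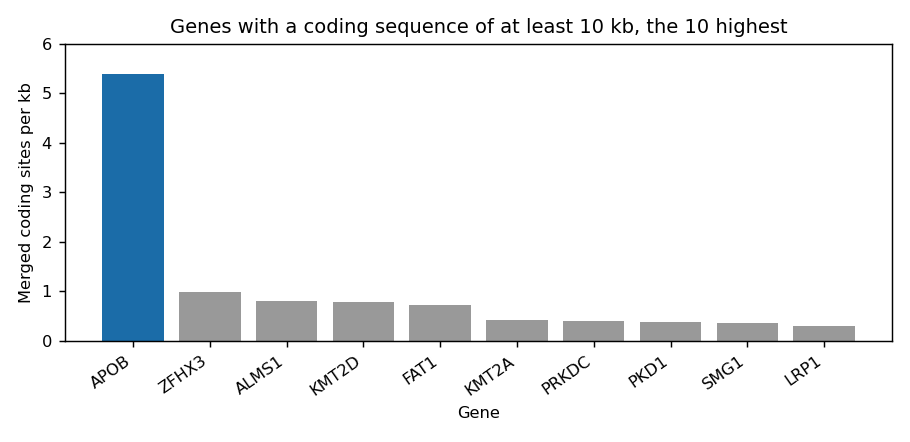
Bars give merged coding sites per kb of coding sequence for the 10 highest of the 123 genes whose coding sequence is at least 10 kb, with APOB in blue at 5.4. The next bar, ZFHX3, is at 0.99.

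The genes that work with APOB in making and clearing lipoproteins had far fewer coding sites. APOB was chosen for its number of clusters and had the most coding sites of all genes, so this difference was set in advance. Of a list of 20, 14 had an exonic site and 10 a reproducible one, against 28.6% and 18.3% of all 20007 protein-coding genes. They held 43 exonic sites, 32 of them in the 3′ UTR and 10 in the coding sequence, with a median of 0 coding sites per kb, as over all genes. LRP1, an endocytic receptor for lipoprotein remnants, was the only one with clusters in all 12 libraries, 1 to 4 in each, although its coding sequence of 13635 nt is about as long as that of APOB. MTTP, which loads lipid onto apolipoprotein B, had 2 sites in the 3′ UTR in 4 IGF2BP libraries. SORT1, a sorting receptor of the secretory pathway, had 6 sites in 9 libraries. Genes of the list without a site included APOA1, APOA4, APOA5, APOM and TM6SF2.

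Sites in the genes of other proteins that hepatocytes secrete lay mostly in the coding sequence. Of a list of 14, 13 had an exonic site and 13 a reproducible one, with a median of 1.49 coding sites per kb. Of their 100 exonic sites 70 were coding, against 26.5% over all protein-coding genes. FN1, SERPINA1 and A2M, the gene of a plasma protease inhibitor, held 44 of the 70, and 60.5% of the sites of the other genes were coding. FGB, a fibrinogen chain, had 1 coding site and 5 in the 3′ UTR. SERPINA1, the gene of alpha-1 antitrypsin, had 7.16 coding sites per kb, and FN1, the gene of fibronectin, 3.09. SERPINA1, FN1 and FGB had clusters in all 12 libraries. ALB, the gene of albumin, had 4 sites in 10 libraries, and AFP, an oncofetal plasma protein, 3 sites in 5. TTR, which carries thyroid hormone, had none. The cell line is of liver origin by its label, and clusters are no measure of the RNA level of these genes.

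Over the 12 libraries, the share of clusters in APOB was most like that of MAN1A1, a mannosidase of the Golgi, with a Pearson r of 0.958 across libraries among 193 genes with at least 10 exonic sites. PTP4A1 and ENSG00000285976, which overlap and have the same clusters per library, followed with 0.936. The median over the 193 genes was 0.0207. MAN1A1 had 0 to 11 clusters a library and 10 of its 13 sites in the 3′ UTR. All of these points share the libraries' depth and the contrast between the bio2 libraries and the rest, so the likeness is a description.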

How the data were processed

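Clusters of 12 PAR-CLIP libraries of HepG2 cells were used as deposited. The methods state that the authors filtered, clipped and collapsed reads with the FASTX toolkit, mapped them with bowtie, allowing up to 3 mismatches and up to 10 positions, and called clusters with PARalyzer. The submitters' processing notes name Bowtie and hg38, and versions were not given in the sources used here. The deposited values are of another unit than counts: a chromosome, start, end and strand per cluster, without score or reads, so the depth behind a cluster is unknown. Starts were read as counted from 1, from the position of G before clusters.

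Clusters in APOB were merged by an overlap of at least 1 nt and placed by their midpoint on the canonical transcript of GENCODE release 44. The gene and the gene lists were chosen with earlier results of these data known. Libraries were grouped by their titles as 8 IGF2BP against 4 METTL1 and WDR4 libraries. Tests were exact permutation tests over libraries at a threshold of 0.05, in Python 3 with numpy and scipy. The code passed 10 checks, some on simulated data and the others on fixed cases with known answers. Alternatives left out libraries, changed the unit, the clusters used, the window, the overlap or the merging. The genes named by rule were those of the lists, the 3 densest of at least 10 kb of coding sequence and the 3 most like APOB across libraries, and the other genes were named after their values were seen. A test planned for the sharing of clusters is not used, because reproducible clusters entered the choice of the gene. Replicate numbers were not taken as pairs, since the 15 correlations, across the sites, of the replicate 1 minus replicate 2 differences of the groups ran from -0.345 to 0.141. Some items covered by these rules are not reported here.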

Additional observations from a re-analysis of the deposited data

Results flagged for a closer look

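In the share of exonic clusters in exon 26, IGF2BP2 replicate 1 lay apart from the other IGF2BP libraries, at 53.8%, with 7 of its 13 exonic clusters in the exon. Its distance from the nearest of the 7 others was large for the range of the 8 by Dixon's criterion. With 12 groups of values examined in this way, and about 1 in 20 groups set apart by chance, this is given as a value only.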

How the results depend on the processing

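Leaving out each library in turn, the IGF2BP minus METTL1 and WDR4 difference ranged from 3.36 to 4.57 nt for the median width, 1.86 to 3.21 nt for the width relative to the library, 9.93 to 14.7 percentage points for exon 26, 10.4 to 13.6 points for CAUH, -0.0194 to 0.0332 for the position, which changed sign in 7 of 12 cases, and -0.655 to 0.103 points for U content, which changed sign in 1 (without WDR4 replicate 2). The exact p rose to 0.0545 for width without METTL1 replicate 2 or WDR4 replicate 1, and to 0.0606 for exon 26 without METTL1 replicate 1. The mean sharing of same-protein pairs less that of different-protein pairs ranged from 16.1 to 21.2 points. The number of sites ranged from 84 to 90 and the share of METTL1 and WDR4 sites with IGF2BP from 80% to 94.7%, in alternatives chosen after seeing the data. With the narrower clusters of each library left out (those below its median width), the differences were 1.88 nt (exact p = 0.291) for width, 10.6 points (exact p = 0.303) for CAUH and -23.5 points for exon 26. With the protein as the unit they were 3.42 nt (exact p = 0.2), 12.1 points (exact p = 0.2) for exon 26 and 10.9 points (exact p = 0.1) for CAUH, where no p can be below 0.1. Without widening, CAUH differed by 2.82 points, and in windows of 41 nt by 2.92. Reproducible clusters alone gave a position difference of -0.0219 (exact p = 0.446). The causes were not tested, except that the protein as the unit leaves 5 values.

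Samples share replicate numbers but nothing ties the numbers to a shared batch. With the replicate block, labels permuted within replicate number over 225 arrangements, the exact p-values were 0.0267 for width, 0.0222 for exon 26 and 0.00889 for CAUH (differences of 4.06 nt, 12.4 and 12.3 points), and no call changed. The settings run and not named here kept direction and side of the threshold. METTL1 and WDR4 values rest on 8 to 15 exonic clusters a library.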
